A study of Arabidopsis thaliana with 9 samples.

Results

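The early cold response of Arabidopsis thaliana was examined in 6 of the 9 RNA-seq libraries of the series, 3 from Col-0 wild-type seedlings kept at 22 °C (0 h) and 3 from Col-0 wild-type seedlings kept at 4 °C for 3 h. The libraries were chosen by their labels alone. All seedlings grew in long days on Murashige and Skoog medium with sucrose, and each replicate pooled about 20 to 30 seedlings. The 22 °C seedlings were harvested at ZT4, where ZT counts the hours since the lights came on, under about 100 µE of light. The cold-treated seedlings were harvested at ZT7 under about 25 µE, so the effects of temperature, time of day, and light cannot be told apart in this comparison. The sample labels give the seedlings as 10 d old, while the accompanying text places the treatment at 12 d, and the age is therefore uncertain. The same text also gives 12 h of cold for each sample, whereas the groups here follow the times of 0 h and 3 h in the sample labels. Whole seedlings are a mixture of organs, and in such bulk samples fewer cells of a type and less RNA per cell cannot be told apart.

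When plants are moved to the cold, calcium enters the cytosol and membranes stiffen. Kinases and calmodulin-binding transcription factors of the CAMTA family act within minutes to hours. They raise the first set of transcription factors, among them the CBF proteins, which later activate the COR genes that protect membranes and proteins during freezing. The same early phase alters hormone metabolism, slows growth, and changes the running of the circadian clock.

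The 6 libraries hold 17923585 to 24291683 assigned reads. Log-transformed levels of all genes correlated at r = 0.984 to 0.988 between libraries of the same group and at 0.955 to 0.962 between the groups. By these correlations no library stood apart from its group. In single genes, however, replicate 1 at 3 h was the lowest of its group in several rises given below. Among them were FKF1, PRR5, CT-BMY, GRP7, ADS2, FER3, and PORB. It was the highest in others, such as PUB19, AP2C1, and AT1G73510. The cause was not tested. As a check of the tissue, 34 root markers, 29 leaf, guard cell, and phloem markers, and 7 seed storage genes were followed. None of the seed storage or root markers was called in either direction, although of the root markers 1 was called higher without replicate 2 or 3 at 22 °C, 2 higher without replicate 3 at 3 h, and 1 lower without replicate 1 at 3 h. Of the 29 leaf, guard cell, and phloem markers, 4 (13.8%) were called lower, against 3.47% of all genes tested. They were TRY, EPF2, STOMAGEN, and TMM, while RBCS1A, CAB1, and CA1 were not called. The count was 2 when either replicate 1 at 22 °C or replicate 3 at 3 h was left out. The summed level of the root markers was 4326 to 5662 CPM (counts scaled to the size of the library) at 22 °C and 5046 to 6385 CPM after 3 h, that of the leaf markers 43224 to 46681 and 38329.9 to 45953 CPM, and that of the seed storage genes 10.5 to 15.2 and 8.99 to 13.2 CPM. The ranges of the groups overlapped for all 3 lists. The root and leaf sums mostly follow their most abundant members, such as PYK10 (mean 3646 CPM at 22 °C) and CAB1 (15669.9 CPM). They say little about weaker markers, such as the 4 called lower. The part of the shifts of these markers in the results below was not tested.

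Over 20460 genes, the quasi-likelihood F test of edgeR called 10.5%, where a call needed an adjusted p below 0.05 together with a log2 fold change of 0.5 or more in either direction. The background against which every list below should be read is 7.05% of genes called higher and 3.47% called lower. The levels of 33.9% of all genes tested did not overlap between the groups, whereas 2123 called genes, or 98.7%, had groups that did not overlap. The response leaned upwards in number and in size. Genes called higher reached a log2 fold change of 1 or more in 769 cases, and genes called lower a value of −1 or less in 196. At a log2 fold change of 2 or −2 the counts were 280 and 22. The genes called higher summed to 37737 CPM at 22 °C and gained 51536 CPM, while the genes called lower summed to 23326 CPM and lost 9621 CPM. The median log2 fold change of all genes tested was −0.01, so the scaling placed the bulk of the transcriptome at no change. Upper quartile factors, another scaling, placed it at −0.06 and gave more falls, and list counts that it or another test moved by over 1.5 times are given beside them.

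Outside the CBF and COR genes, which were left out of this ranking, the largest rises were of genes that were almost silent at 22 °C. AT5G62360 (chr5:25040540-25041504), which encodes a protein of the invertase and pectin methylesterase inhibitor superfamily, measured 0.356, 0.523, and 0.728 CPM at 22 °C and 135, 197, and 188 CPM after 3 h (log2 fold change 8.33, SE 0.24, adjusted p = 1.65e-12). AT1G70640, a gene for a PB1 domain protein, rose from 0.0509, 0.654, and 0.26 CPM to 59.9, 85.3, and 74.9 CPM (7.73, SE 0.26, adjusted p = 6.42e-12). The uncharacterized AT4G18422 rose from 0.254, 0.349, and 0.156 CPM to 53.6, 65.9, and 60.2 CPM (7.82, SE 0.22, adjusted p = 1.09e-12). In all of these the lowest library at 3 h lay far above the highest at 22 °C. The ranking took only genes with separate groups. AT2G17660, of the RIN4 family of immune regulators, rose by 7.23 (SE 0.45), AT1G11210, a gene for a protein with a domain of unknown function, by 6.92 (SE 0.19), and DDF1, a factor closely related to the CBF proteins, by 6.70 (SE 0.46). AT2G17660 overlaps AT2G17650 on the same strand, so part of its reads could belong to the other gene. The gene of the clock-associated F-box protein FKF1, also among the 8 largest rises, rose by 9.23 (SE 0.34), more than the folds given above. It measured 0.0509, 0.305, and 0.156 CPM at 22 °C and 71.5, 138, and 123 CPM after 3 h. Time of day and temperature cannot be told apart for it.

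A few genes had no read in any library at 22 °C and at least 30 in each library after 3 h. AT1G49220, which encodes a RING/U-box protein, had 45, 48, and 59 reads after 3 h, and AT1G66060, a gene of unknown function, had 45, 54, and 45. Set against a floor of 3 reads over the 22 °C group, they were at least 48.3-fold and 46.1-fold higher. Both share part of their sequence with other transcripts (12.4% and 19.2% of their 31-base words), so their reads could in part have been assigned from a close copy. AT1G73510, the other gene of this kind, had 504, 158, and 361 reads after 3 h and was at least 306-fold higher.

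The largest falls were smaller and started from well-measured levels. AT1G14200, a gene for another RING/U-box protein, fell from 10.0, 10.9, and 11.2 CPM to 3.09, 1.41, and 1.28 CPM (log2 fold change −2.44, SE 0.26, adjusted p = 4.84e-06). AT3G23880, which encodes an F-box protein, fell from 16.6, 16.4, and 17 CPM to 4.94, 4.05, and 4.15 CPM (−1.92, SE 0.15). The auxin-induced growth gene SAUR14 (AT4G38840) fell from 31.7, 29.3, and 24.7 CPM to 7.88, 6.32, and 8.58 CPM (−1.91, SE 0.13). The groups were separate in each, as the ranking required. AT1G04770, a gene for a tetratricopeptide repeat protein, fell by 1.88 on the log2 scale, AT1G23390, an F-box gene with Kelch repeats, by 1.87, and LSU1, a gene known to respond to sulphur supply, by 1.82. The genes OFP16 and BBX32 complete the 8 largest falls, and the largest fall of the 8 was among them.

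**Figure D1:**
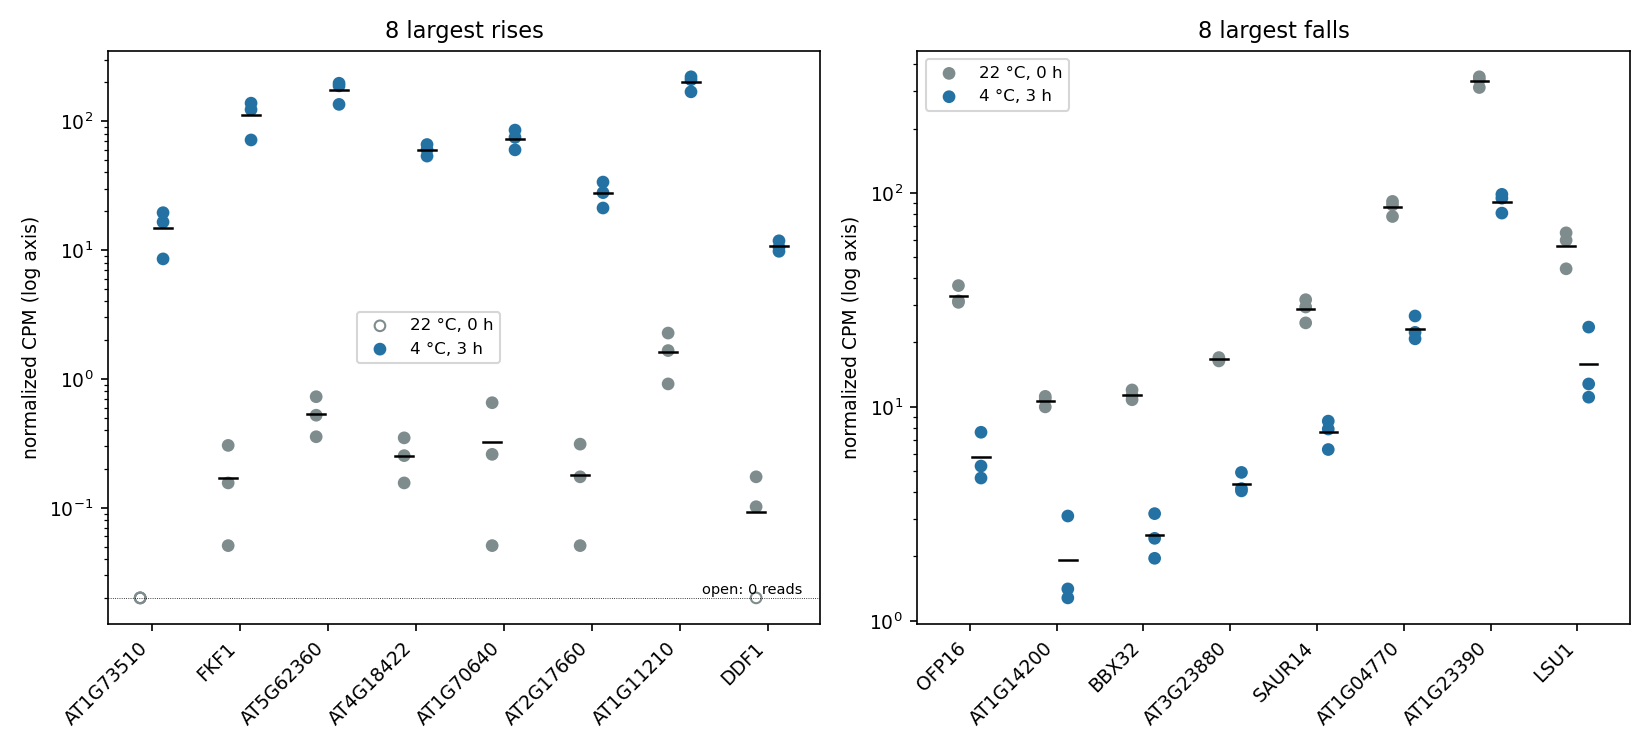
Normalized CPM on a log axis of the 8 genes with the largest rises and the 8 with the largest falls (CBF and COR genes left out), in the 3 libraries at 22 °C (grey) and the 3 after 3 h at 4 °C (blue), with horizontal bars at the group means and open circles for libraries with 0 reads. Only called genes with separate groups could be picked, so the separation follows from the choice. The rises span from 6.70 on the log2 scale upwards while the falls stay between −1.82 and −2.48.

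Ranked by the amount of RNA instead of the fold, the rises were led by CT-BMY, a plastid beta-amylase that breaks starch down to maltose, at 218, 208, and 219 CPM at 22 °C and 1188, 1576, and 1521 CPM after 3 h. The dehydrin gene ERD10 rose from 126, 185, and 174 CPM to 891, 1033, and 1032 CPM, and COR47 and CBF2 also belong to the 5 largest gains. AT4G32020, whose product is annotated as similar to a serine/arginine repetitive matrix protein, rose from 357, 362, and 357 CPM to 956, 1059.5, and 1059 CPM (log2 fold change 1.51, SE 0.08, adjusted p = 1.19e-09). The largest losses were those of CAT2, VTC2, AT1G23390, TEM2, and ASPG1. The ascorbate synthesis gene VTC2 fell from 446, 428, and 442 CPM to 262, 241, and 264 CPM (−0.78, SE 0.07), and the aspartyl protease gene ASPG1 from 288, 292, and 310.2 CPM to 151, 147, and 149 CPM (−0.99, SE 0.08). The peroxisomal catalase gene CAT2 fell by 0.51 on the log2 scale, a call that was lost without replicate 3 at 22 °C.

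Promoters of the genes called higher were compared with those of all genes tested over 17 short DNA words known from plant promoters, in a window of 250 bases before to 50 bases after the annotated start on both strands. These shares are descriptions, and no test was run on them. The evening element AAATATCT, which clock-associated MYB-like factors bind, was present in 14.8% of promoters of genes called higher, against 5.96% of all genes tested and 3.52% of genes called lower. CGCGTT, the core of the rapid stress response element bound by CAMTA factors, was in 9.08%, 3.69%, and 1.97%, respectively, and CCGCGT, a related CAMTA word that overlaps it in the sequence CCGCGTT, in 6.87%, 2.51%, and 1.69%. Of the 18504 genes with neither AAATATCT nor CGCGTT, 6.02% were called higher. The share was 16.8% of the 1170 genes with AAATATCT alone, 16.2% of the 705 with CGCGTT alone, and 35.4%, or 17 genes, of the 48 with both. The core of the C-repeat, CCGAC, which CBF proteins bind, differed less (18.0% of genes called higher and 16.2% of all). Words typical of housekeeping promoters were rarer among genes called higher, with TGGGCC, the site II element, in 7.98% against 18.3% of all genes and AAACCCTA, the telo-box, in 2.57% against 5.41%.

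**Figure D2:**
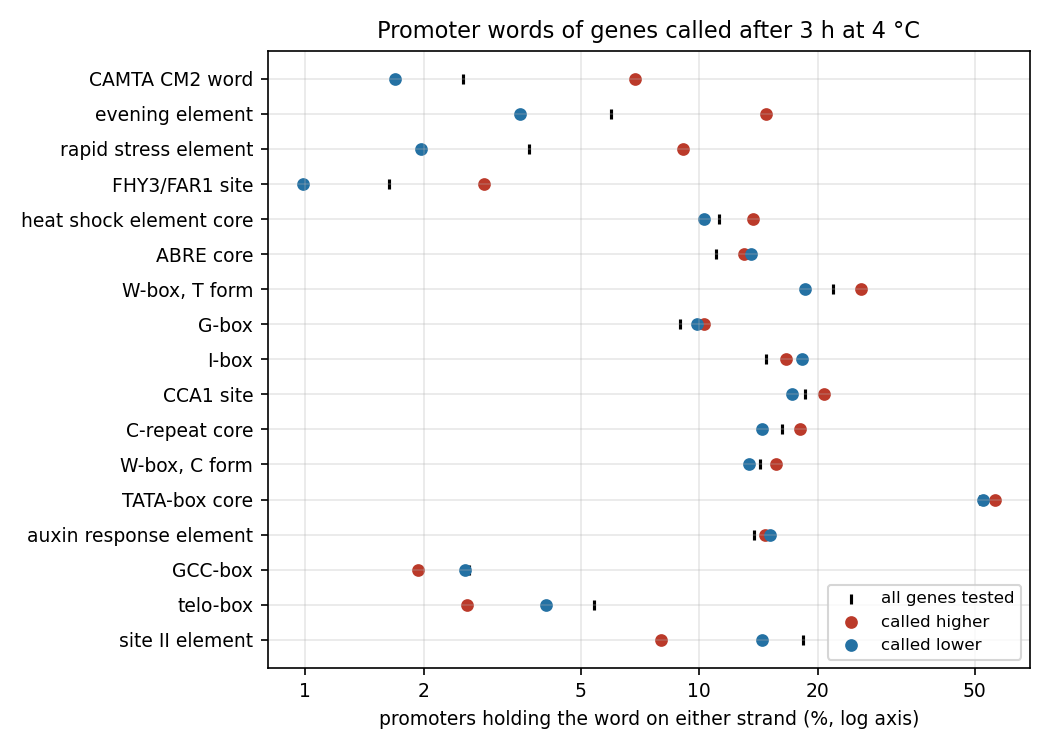
Percentage of promoters (log axis) that hold each of 17 words on either strand, for all genes tested (black marks, 20427 promoters), genes called higher (red, 1442), and genes called lower (blue, 710) after 3 h at 4 °C. The evening element and the CAMTA words lie furthest to the right of the black mark for genes called higher, and the site II element and telo-box lie to the left of it.

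The 250 bases before the start of 5 genes called higher are printed to show how these words are arranged. They were taken from RefSeq (TAIR10.1), run 5′ to 3′ on the strand of the gene, and carry AAATATCT, CGCGTT, and CCGCGT in capitals as read on either strand. They were picked after the words had been found, among 100 named genes called higher of which 17 held AAATATCT and 16 held CGCGTT or CCGCGT in this stretch. For windows of this length, AAATATCT was in 4.99% of all promoters, CGCGTT in 2.75%, and CCGCGT in 1.90%. FKF1 (chr1:25508389-25508638, plus strand), GRP7 (chr2:9266558-9266807, minus strand), which encodes a glycine-rich RNA-binding protein, and AIF1 (chr3:1726901-1727150, plus strand), which encodes a helix-loop-helix protein, hold several evening elements. NAC062 (chr3:18364960-18365209, minus strand), a gene for a NAC factor, holds CCGCGT in 2 places, and NHL3 (chr5:1931783-1932032, minus strand), a gene linked to immunity, holds words of both kinds.
FKF1: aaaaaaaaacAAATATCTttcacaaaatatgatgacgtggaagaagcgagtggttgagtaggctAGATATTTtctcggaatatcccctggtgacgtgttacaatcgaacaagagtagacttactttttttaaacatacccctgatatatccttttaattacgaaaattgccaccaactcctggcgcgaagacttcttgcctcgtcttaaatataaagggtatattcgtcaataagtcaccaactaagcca
GRP7: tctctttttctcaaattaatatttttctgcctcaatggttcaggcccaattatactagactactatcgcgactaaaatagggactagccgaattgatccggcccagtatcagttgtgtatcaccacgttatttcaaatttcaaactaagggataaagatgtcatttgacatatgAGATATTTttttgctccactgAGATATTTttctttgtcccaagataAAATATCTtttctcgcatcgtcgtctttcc
AIF1: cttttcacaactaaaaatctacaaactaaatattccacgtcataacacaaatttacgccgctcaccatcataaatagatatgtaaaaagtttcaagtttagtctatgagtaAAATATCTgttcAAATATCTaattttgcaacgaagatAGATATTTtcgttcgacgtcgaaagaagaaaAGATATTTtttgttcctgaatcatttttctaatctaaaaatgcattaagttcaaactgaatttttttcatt
NAC062: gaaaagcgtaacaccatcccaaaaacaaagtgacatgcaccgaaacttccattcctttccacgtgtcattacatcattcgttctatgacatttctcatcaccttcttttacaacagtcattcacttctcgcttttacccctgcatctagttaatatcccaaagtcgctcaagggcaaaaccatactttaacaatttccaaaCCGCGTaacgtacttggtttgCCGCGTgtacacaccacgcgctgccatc
NHL3: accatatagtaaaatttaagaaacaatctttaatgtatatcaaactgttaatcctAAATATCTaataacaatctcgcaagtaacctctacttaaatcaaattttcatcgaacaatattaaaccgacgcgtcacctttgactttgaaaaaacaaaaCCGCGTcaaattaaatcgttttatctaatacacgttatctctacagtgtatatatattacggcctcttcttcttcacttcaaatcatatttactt

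The structure of the responding genes differed from that of the transcriptome. Genes without introns made up 15.5% of the protein-coding genes tested, 30.5% of those called higher, and 43.4% of those called lower. The median number of exons was 5 over all genes tested and 2 in both called sets. Of the 3110 genes with 1 exon, 13.9% were called higher and 9.58% lower, and of those with over 10 exons 1.72% and 1.07%. The difference was also seen within classes of level. Among the most abundant of 4 equal classes of mean level, 23.0% of genes with 1 exon and 7.10% of genes with 2 or more were called higher, and in the least abundant class the shares were 9.89% and 5.26%. Transcript length differed little, with medians of 1677 bases over all genes tested, 1582 among those called higher, and 1514 among those called lower. These shares are descriptions without a test.

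**Figure D3:**
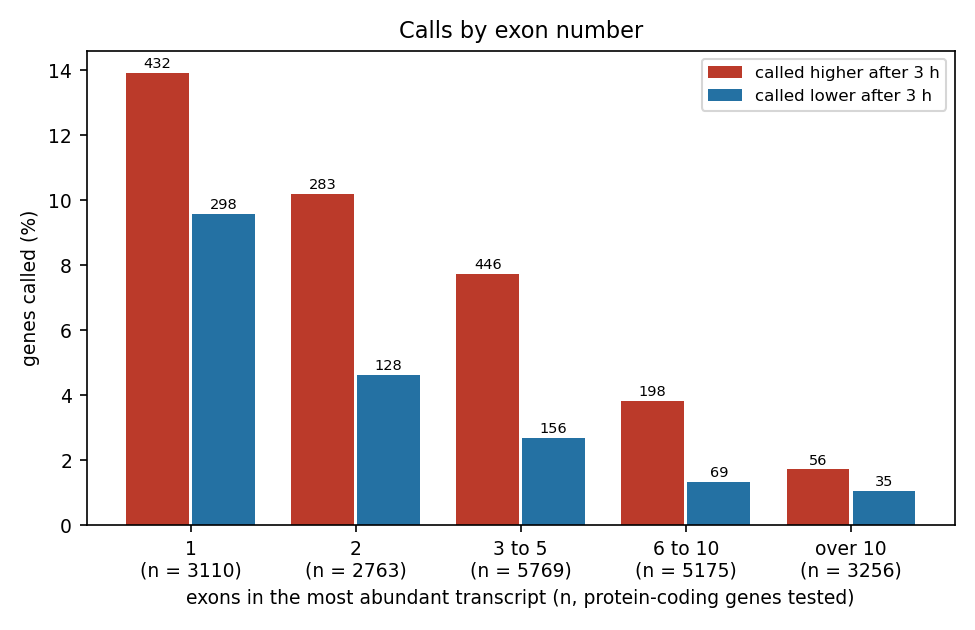
Percentage of protein-coding genes tested that were called higher (red) or lower (blue) after 3 h at 4 °C, by the number of exons in the most abundant transcript, with the number of genes called above each bar. The shares fall from 13.9% and 9.58% of genes with 1 exon to 1.72% and 1.07% of genes with over 10.

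Genes for calcium signalling, the earliest known step of cold perception, were mostly unchanged or higher. Of 31 calcium sensor and transport genes tested, 7 rose and none fell (median log2 fold change 0.28). The calmodulin-like gene CML38 rose from 7.02, 5.79, and 4.73 CPM to 169, 173, and 186 CPM (log2 fold change 4.91, SE 0.21, adjusted p = 9.09e-11), and BAP1, which encodes a C2-domain protein that restrains cell death, from 3.66, 4.97, and 4.00 CPM to 29.1, 20.7, and 26.3 CPM (2.59, SE 0.16). Among 33 genes for CBL calcium sensors and their CIPK kinase partners, 8 rose and 1 fell (median 0.19). The sensor CBL1 rose from 12.1, 10.9, and 8.06 CPM to 65.4, 90.2, and 85.0 CPM (2.95, SE 0.17, adjusted p = 3.87e-09), although it overlaps AT4G17616 on the same strand. CIPK20 rose by 1.8 (SE 0.12), and CIPK5 fell by 0.83 on the log2 scale.

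In the MAP kinase cascade 8 of 51 genes rose and none fell (1 fell with upper quartile factors or the 6 libraries alone), with a median of 0.12, and 5 of the 8 were kinases of the cascade's top tier (MEKK1, MAPKKK14, MAPKKK19, MAPKKK20, and MAPKKK21). MAPKKK14 rose from 14.9, 15.2, and 16.6 CPM to 63.6, 45.8, and 55.6 CPM (log2 fold change 1.82, SE 0.12, adjusted p = 9.34e-09). AP2C1, a phosphatase that switches MAP kinases off, rose from 22.1, 22.7, and 21.7 CPM to 78.0, 55.7, and 63.6 CPM (1.57, SE 0.11). It shares 8.24% of its words with other transcripts. Of 36 cysteine-rich and wall-associated receptor kinases 5 rose (3 without replicate 3 of either group) and none fell (up to 3 when 1 library was left out, with 3 reached without replicate 2 at 3 h, and 2 with upper quartile factors), with a median of −0.01.

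Genes of pattern-triggered immunity, the defence that plants raise against conserved microbial molecules, rose in a larger share than most other lists. Of 39 tested, 14 rose and none fell (1 fell without replicate 2 at 3 h or with upper quartile factors), and the median was 0.36. NHL3 rose from 52.6, 51.8, and 52.4 CPM to 191, 185, and 189.6 CPM (log2 fold change 1.85, SE 0.07, adjusted p = 2.95e-11), with no overlap between the groups. The ubiquitin ligase PUB23, a negative regulator of this defence, rose by 2.01 (SE 0.11), and the kinases PEPR1, PEPR2, BIK1, CPK5, CPK6, and CPK28 were also called higher, by 0.53 to 1.41. Of 28 genes of salicylic acid synthesis and response, 8 rose and 1 fell (median 0.16). The fall was lost when any library other than replicate 3 at 22 °C was left out. The synthesis genes ICS1 and PBS3 (−0.18 and 0.10) and the response genes PR2 and PR5 (−0.45 and 0.11) were not called. The regulator of salicylic acid synthesis CBP60G rose from 20.9, 16.7, and 14.7 CPM to 41.9, 40.6, and 38.9 CPM (1.21, SE 0.13, adjusted p = 5.78e-06). NDR1, which some resistance proteins require, rose by 3.04 (SE 0.19), and it shares 10.0% of its words with other transcripts.

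E3 ubiquitin ligases of the PUB and ATL families moved in both directions, with 10 of 34 higher and 3 lower (median 0.23). ATL78 was at 0.814, 0.959, and 1.04 CPM at 22 °C and at 43.9, 41.7, and 40.6 CPM after 3 h (log2 fold change 5.48, SE 0.13, adjusted p = 2.34e-13). PUB19, which is known from drought responses, rose from 10.1, 16.8, and 19.0 CPM to 275, 216, and 244 CPM (4.00, SE 0.17). In the opposite direction, PUB26 fell from 43.5, 38.3, and 39.2 CPM to 12.6, 10.6, and 15.7 CPM (−1.63, SE 0.13, adjusted p = 1.74e-07). The jasmonate genes rose in 9 of 46 cases, with a median of 0.12 and none called lower (1 to 2 lower when replicate 1 at 3 h, or replicate 1 or 2 at 22 °C, was left out, and 2 with upper quartile factors). Both ends of the pathway were among them. LOX3, LOX4, and AOC3, which make jasmonate, rose by 1.71, 1.42, and 0.58, the repressor gene JAZ1 rose from 24.5, 27.4, and 29.2 CPM to 160.1, 169, and 156 CPM (2.58, SE 0.08), and CYP94B3, which oxidizes the active hormone, rose from 2.14, 4.40, and 4.21 CPM to 57.6, 61.4, and 63.2 CPM (4.07, SE 0.29).

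**Figure D4:**
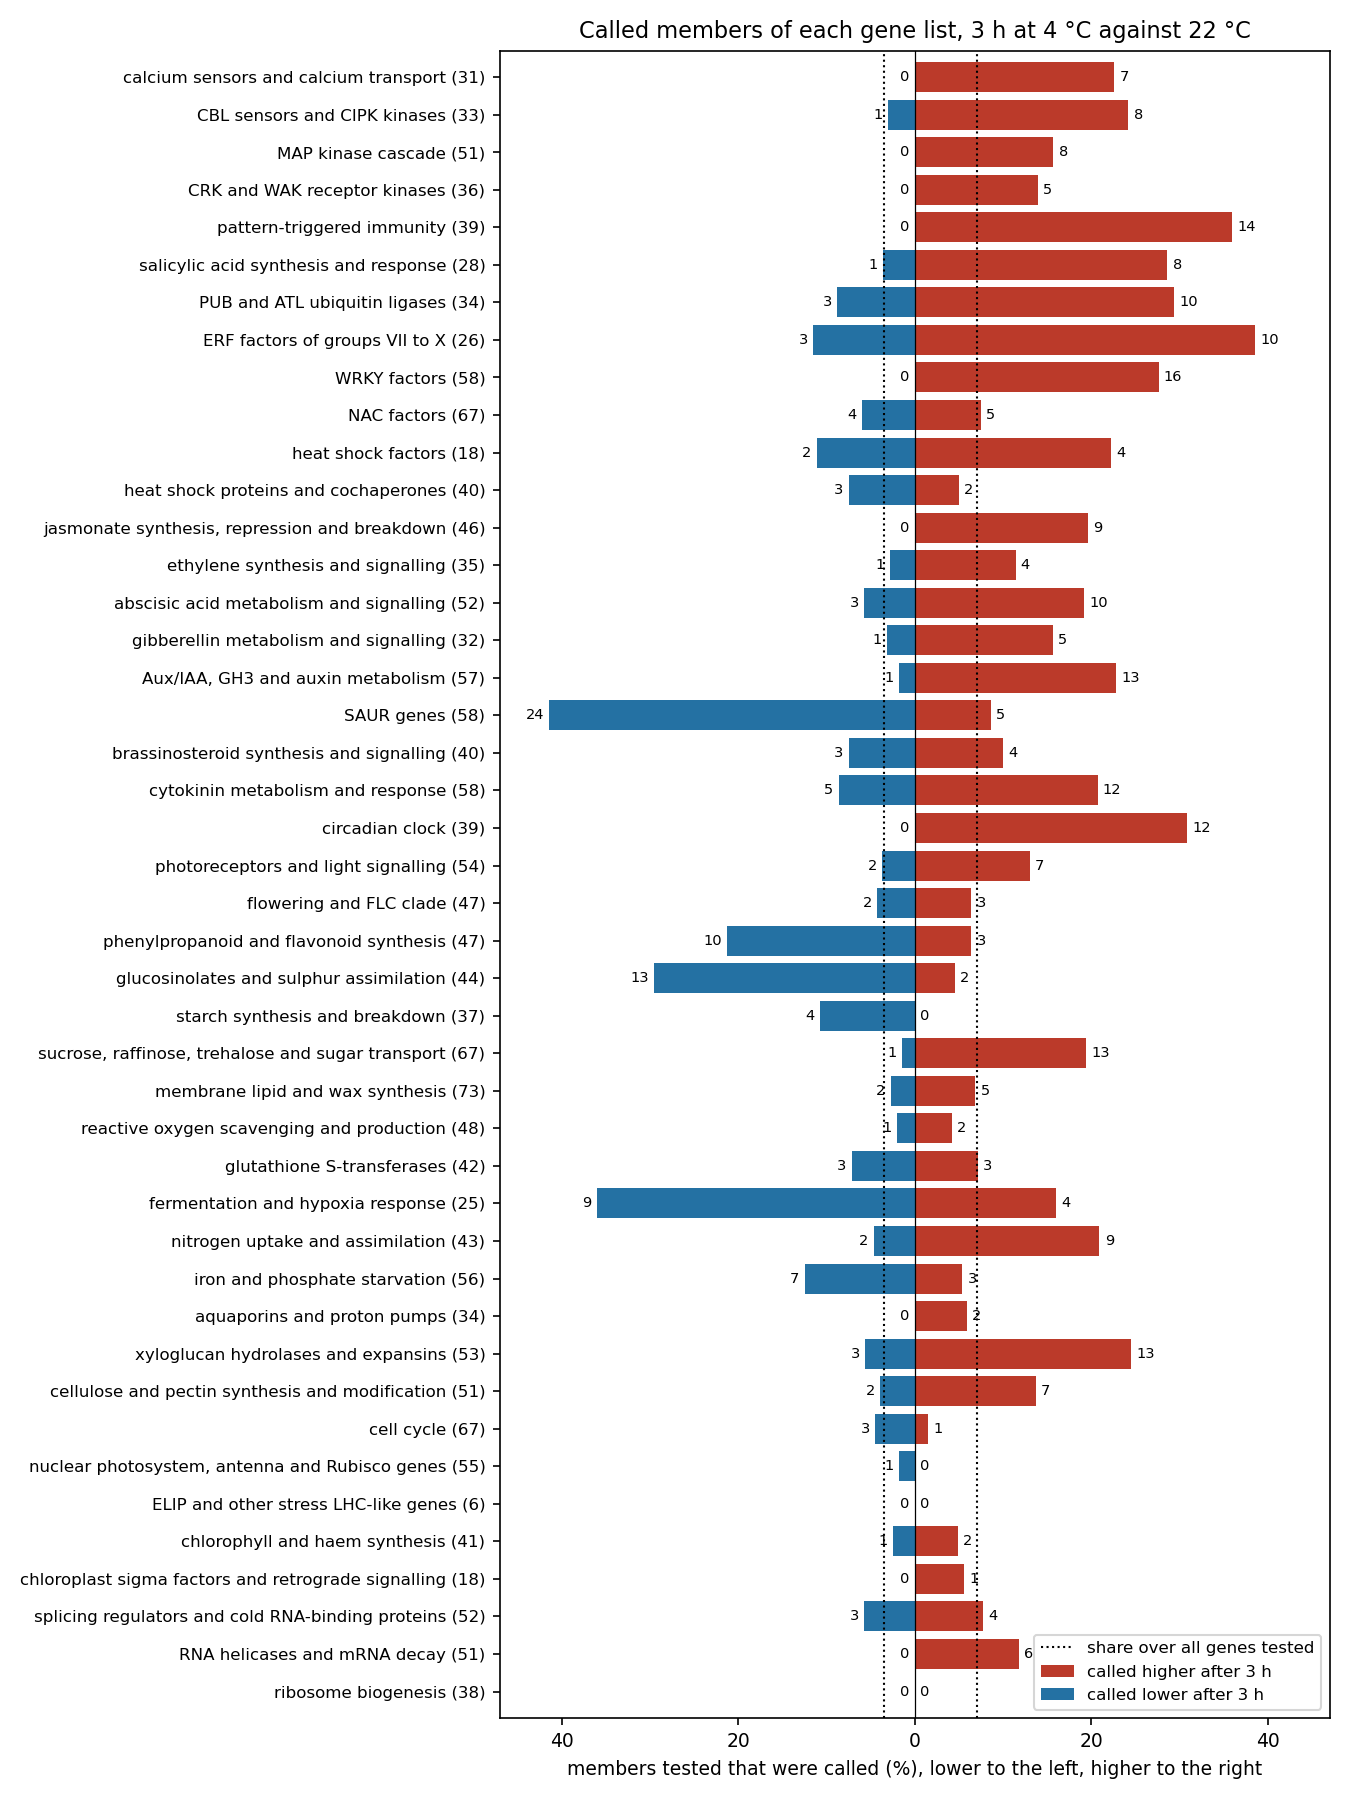
Percentage of the tested members of each of 44 gene lists that were called higher (red, to the right) or lower (blue, to the left) after 3 h at 4 °C, with the number of members tested in brackets, the number called beside each bar, and dotted lines at the shares over all genes tested (7.05% and 3.47%). ERF, pattern-triggered immunity, and clock genes reach furthest to the right, and SAUR, hypoxia, and sulphur genes furthest to the left.

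Among transcription factors, the stress-related families differed in how often they were called. Of 26 ERF factors of groups VII to X, 10 rose and 3 fell (median 0.25). The repressor ERF11 rose from 2.49, 3.57, and 2.5 CPM to 24.8, 24.3, and 26.2 CPM (log2 fold change 3.12, SE 0.17), and ERF4, also a repressor, by 1.62 (SE 0.10). The other genes called higher were RRTF1, ERF2, ERF5, ERF6, ERF7, ERF73, RAP2.2, and RAP2.12, by 0.53 to 4.24, of which RRTF1 rose most. ERF-1, ERF104, and ERF71 fell by 0.87, 0.88, and 1.65 on the log2 scale. The largest of these folds came from low levels. ERF71 had means of 1.19 CPM at 22 °C and 0.381 CPM after 3 h (SE 0.46), and RRTF1 rose from a mean of 0.356 CPM to 6.86 CPM. ERF104 measured 70.2, 59.4, and 60.0 CPM at 22 °C and 41.0, 28.6, and 33.0 CPM after 3 h (adjusted p = 7.07e-05). Of 58 WRKY factors, which act in defence and stress, 16 rose and none fell, or up to 2 fell without replicate 1 of either group (median 0.30). WRKY48 and WRKY72 rose most clearly, by 2.57 (SE 0.15) and 2.37 (SE 0.13). NAC factors were called in numbers closer to the background, with 5 higher and 4 lower of 67 (median 0.16). NAC062, a membrane-tethered factor, rose from 55.6, 54.1, and 54.4 CPM to 119, 113, and 122 CPM (1.11, SE 0.07, adjusted p = 1.45e-08), and NAC041 fell from 16.3, 15.9, and 16.5 CPM to 10.2, 6.92, and 9.95 CPM (−0.84, SE 0.16).

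Of 18 heat shock factors 4 rose and 2 fell, or 1 without replicate 1 at 22 °C (median 0.15). HSFA6B was at 0.254, 0.828, and 0.416 CPM at 22 °C and at 34.9, 35.7, and 37.0 CPM after 3 h (log2 fold change 6.10, SE 0.20, adjusted p = 4.40e-12), and HSFC1 rose from 14.8, 18.0, and 19.4 CPM to 168, 185, and 197 CPM (3.4, SE 0.11). HSFB2B, which encodes a repressor, fell by 0.61 on the log2 scale. In the list of 40 heat shock proteins and cochaperones 2 rose and 3 fell, or 7 with upper quartile factors (median −0.11). The genes that rose, DREB2A and DREB2B, encode transcription factors of the heat and drought response, not chaperones, at 5.99 ± 3.09 CPM and 0.479 ± 0.341 CPM at 22 °C and 131 ± 9.57 CPM and 40 ± 3.58 CPM after 3 h (mean ± SD, n = 3). The disaggregase gene HSP101 fell from 9.77, 11.5, and 11.3 CPM to 6.83, 5.35, and 7.71 CPM (−0.71, SE 0.15), and the coactivator gene MBF1C by 0.87 on the log2 scale.

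SAUR genes, small early auxin-induced genes of which many promote cell expansion, formed the list with the largest share of falls, 24 of 58 against 5 rises, with a median log2 fold change of −0.52. SAUR78 fell from 64.4, 52.6, and 58.5 CPM to 25.5, 24.7, and 22.9 CPM (−1.26, SE 0.10, adjusted p = 8.11e-08). Against this trend, SAUR79 rose from 1.17, 0.654, and 1.2 CPM to 12.4, 15.1, and 13.9 CPM (3.79, SE 0.25, adjusted p = 2.03e-08), and SAUR9 rose by 1.75 (SE 0.32). Of 57 Aux/IAA, GH3, and auxin metabolism genes 13 rose and 1 fell (median 0.14). The auxin synthesis gene YUC8 rose from 4.37, 3.79, and 4.16 CPM to 21.8, 22.1, and 19.7 CPM (2.37, SE 0.11), and YUC3, YUC5, and YUC9 were also called higher, by 1.08, 1.67, and 2.06. The repressor gene IAA2 rose by 1.17 (SE 0.09), and the receptor gene AFB3 fell from 57.2, 59.1, and 60.6 CPM to 35.5, 34.3, and 34.6 CPM (−0.76, SE 0.08).

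Cytokinin genes rose in 12 of 58 cases and fell in 5 (median 0.20). Response regulators of type A, which are induced by cytokinin and dampen its signal, were among the rises. ARR5 measured 14.6, 12.9, and 16.0 CPM at 22 °C and 96.9, 95.2, and 104 CPM after 3 h (log2 fold change 2.77, SE 0.10, adjusted p = 1.19e-11), and ARR4, ARR6, and ARR7 were called higher by 0.93, 1.75, and 2.52. The cytokinin response factor gene CRF4 rose from 5.04, 4.1, and 3.79 CPM to 20, 25.6, and 24.2 CPM (2.43, SE 0.14). KMD3, an F-box gene whose product removes activators of the cytokinin response, fell from 52.4, 47.5, and 46.3 CPM to 19.1, 18.4, and 14.9 CPM (−1.48, SE 0.13), and KMD1 by 0.65 on the log2 scale.

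Of 5 gibberellin 2-oxidase genes tested, whose products inactivate the hormone, 3 rose. GA2OX6 went from 6.20 ± 0.265 CPM to 21.5 ± 1.99 CPM (mean ± SD, n = 3), with separate groups (log2 fold change 1.79, SE 0.10, adjusted p = 3.41e-09), and GA2OX1 and GA2OX2 rose by 2.22 and 1.02. Over the list 5 of 32 genes rose and 1 fell, or 2 without replicate 1 or 2 at 3 h, 2 with DESeq2 or with the 6 libraries alone, and 4 with upper quartile factors (median 0.01). Brassinosteroid genes were called 4 times higher and 3 times lower of 40, or 5 times lower without replicate 3 at 3 h or with upper quartile factors (median 0.14). AIF1, an inhibitor of brassinosteroid-dependent growth, rose from 6.82, 7.45, and 7.64 CPM to 41.8, 61.2, and 60.3 CPM (2.89, SE 0.15), the receptor gene BRI1 rose from 121, 111, and 127 CPM to 171, 176, and 195 CPM (0.59, SE 0.08), and BKI1, which encodes an inhibitor of that receptor, fell from 9.87, 13.4, and 12.0 CPM to 5.06, 3.46, and 5.20 CPM (−1.35, SE 0.21).

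Of 52 abscisic acid genes 10 rose and 3 fell, or 1 without replicate 2 at 3 h or without replicate 2 or 3 at 22 °C (median −0.01). The rises included genes of synthesis and of breakdown, with NCED3 and NCED5 higher by 2.29 and 1.92 and the breakdown gene CYP707A3 by 3.55 (SE 0.10). The bZIP factor ABF1, a mediator of abscisic acid responses, rose from 4.27, 4.36, and 5.46 CPM to 36.8, 80.5, and 59.8 CPM (3.65, SE 0.23, adjusted p = 9.53e-09), with a wide spread after 3 h but no overlap. Of 35 ethylene genes 4 rose, or 2 without replicate 1 at 3 h, and all 4 were ACS genes for the enzyme that makes the ethylene precursor (median of the list 0.05). ACS7 measured 3.15, 3.22, and 2.96 CPM at 22 °C and 10.5, 8.32, and 7.26 CPM after 3 h (1.48, SE 0.19, adjusted p = 2.90e-05). The single fall (2 falls without replicate 3 at 3 h, with DESeq2, upper quartile factors, or the 6 libraries alone) was that of EBF2, which encodes an F-box protein that removes the ethylene factor EIN3, from 61.4, 60.1, and 61.8 CPM to 32.6, 44.2, and 38.9 CPM (−0.67, SE 0.10).

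Clock genes had 12 rises among 39 tested and no fall (1 fall without replicate 1 or 3 at 3 h or with upper quartile factors), with a median of 0.24. The libraries were taken 3 h apart in the day, so time and temperature cannot be told apart for these genes. PRR5, a repressor expressed in the afternoon, measured 1.88, 1.87, and 2.5 CPM at 22 °C and 135, 272, and 224 CPM after 3 h (log2 fold change 6.66, SE 0.25, adjusted p = 1.84e-11). The MYB-like gene RVE2 rose from 9.61, 11.4, and 12.3 CPM to 275, 355, and 343 CPM (4.87, SE 0.12), and its relative RVE1 from 72.1, 90.5, and 86.4 CPM to 123, 172, and 149 CPM (0.83, SE 0.12). In FKF1 and PRR5 replicate 1 at 3 h was the lowest of its group. The flowering list was called in shares near the background, with 3 rises and 2 falls (1 without replicate 3 at 22 °C) of 47 (median 0.01). These are 6.38% higher and 4.26% lower, against 7.05% and 3.47% of all genes tested. COL9 rose from 2.75, 1.61, and 2.24 CPM to 25.6, 54.2, and 44.0 CPM (4.23, SE 0.26), again lowest in replicate 1 at 3 h, and TEM2, a repressor of flowering, fell from 295, 299, and 281 CPM to 129, 93.5, and 110.1 CPM (−1.39, SE 0.10).

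Of 54 photoreceptor and light signalling genes 7 rose and 2 fell, or 1 when any library other than replicate 1 at 3 h was left out (median −0.04). Of the rises, 4 were homeodomain genes of the shade response. Other members were not called, among them the homeodomain genes HAT1 (0.34) and HAT22 (−0.04) and the genes PIL1 (0.54) and HFR1 (0.43). ATHB2, which is induced when plants are shaded, rose from 10.8, 10.2, and 9.67 CPM to 89.4, 125, and 104 CPM (log2 fold change 3.37, SE 0.12, adjusted p = 1.26e-11), ATHB4 and HAT3 by 3.51 and 0.50, and HAT2 from 37.2, 31.5, and 33.2 CPM to 105, 108, and 103 CPM (1.63, SE 0.09). The light differed between the groups as well, and its part in these rises was not tested.

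A fall of CIB1 (AT4G34530) in this list came with signs of read assignment between neighbours. CIB1 had 137, 218, and 162 reads at 22 °C and 0 in each library after 3 h. It shares its start and strand with AT4G34540 (chr4:16498391-16502174), whose reads were 481, 441, and 342 at 22 °C and 724, 502, and 630 after 3 h, and 100% of the 31-base words of CIB1 also occur in other transcripts. The sum of both was 28.8 CPM at 22 °C and 27.9 CPM after 3 h, so the measured fall of CIB1 was not seen in the summed reads.

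Genes that remodel the cell wall rose more often than they fell. Of 53 genes for xyloglucan hydrolases (XTH) and expansins 13 rose and 3 fell (median 0.19). XTH18 rose from 27.0, 24.9, and 25.6 CPM to 84.7, 80.2, and 85.5 CPM (log2 fold change 1.69, SE 0.11), with 8.27% of its words shared, and the expansin-like gene EXLA1 from 16.7, 15.8, and 13.4 CPM to 72.7, 98.6, and 99.5 CPM (2.56, SE 0.12, adjusted p = 2.74e-10). The expansin EXPA8, which loosens walls in growing tissue, fell from 117, 123, and 107 CPM to 67.8, 54.3, and 59.1 CPM (−0.94, SE 0.11). Of 51 cellulose and pectin genes 7 rose and 2 fell (1 without replicate 1 of either group), with a median of 0.15. GAE6, which makes a precursor of pectin, rose from 175, 182, and 186 CPM to 258, 297, and 284 CPM (0.63, SE 0.08). The 67 cell cycle genes were called in 1 case as higher (0 to 2 when 1 library was left out, 2 without replicate 1 at 3 h) and in 3 as lower (median −0.07). With upper quartile factors none was called higher. LGO and SIM, inhibitors of cyclin-dependent kinases that promote endoreduplication, both fell, LGO from 39.2, 33.9, and 33.9 CPM to 18.4, 16.4, and 16.7 CPM (−1.05, SE 0.10) and SIM by 0.67 on the log2 scale.

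Secondary and sulphur metabolism stood among the lists with the most falls. Of 44 glucosinolate and sulphur assimilation genes 13 fell and 2 rose, or 1 rose without replicate 2 at 22 °C or replicate 1 at 3 h or with upper quartile factors (median −0.28). All 3 LSU genes called fell, LSU2 from 51.7, 59.8, and 59.7 CPM to 27.7, 19.1, and 19.9 CPM (log2 fold change −1.35, SE 0.12, adjusted p = 8.26e-07), and APR1, which encodes a key enzyme of sulphate reduction, fell from 282, 269.7, and 266 CPM to 156, 137, and 137 CPM (−0.93, SE 0.08). MYB28 and MYB29, regulators of aliphatic glucosinolates, were called lower by −0.53 and −1.11, whereas MYB51, a regulator of indolic glucosinolates, rose from 20.4, 21.7, and 17 CPM to 34.1, 32.4, and 34.5 CPM (0.77, SE 0.11). Of 47 phenylpropanoid and flavonoid genes 10 fell and 3 rose (median −0.14). The flavonol glycosyltransferase gene UGT78D1 fell from 66.0, 60.0, and 70.3 CPM to 45.5, 37.8, and 42.5 CPM (−0.64, SE 0.09), and the anthocyanin regulators PAP1 and TT8 were called lower by −1.07 and −0.74. PAL2, the entry enzyme of the pathway, rose from 243, 277, and 305 CPM to 474, 469, and 439 CPM (0.75, SE 0.08).

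None of the 37 listed starch genes tested rose and 4 fell (median −0.23). CT-BMY, the starch-degrading gene that rose as given above, is not among the 37, because its other name, BAM3, is shared with a receptor kinase and was left out. GBSS1, the starch synthase that makes amylose, fell from 285, 294, and 341 CPM to 175, 171, and 176 CPM (log2 fold change −0.82, SE 0.08, adjusted p = 2.10e-06), and BAM9, which encodes a beta-amylase without catalytic activity, from 118, 118, and 121 CPM to 63.5, 57.6, and 63.9 CPM (−0.95, SE 0.08). Of 67 sugar genes 13 rose and 1 fell, or 2 without replicate 1 at 3 h or with the 6 libraries alone (median 0.14). The monosaccharide importers STP13 and STP4 rose from 15.4, 21.9, and 19.9 CPM to 64.7, 67.6, and 59.1 CPM (1.74, SE 0.11) and from 32.4, 30.5, and 28.4 CPM to 65.6, 77.2, and 68.0 CPM (1.2, SE 0.09). Hypoxia and fermentation genes fell in 9 of 25 cases, or 5 without replicate 3 at 22 °C, and rose in 4 (median −0.18). ADH1, alcohol dehydrogenase, fell from 31 ± 2.75 CPM to 16.7 ± 1.09 CPM (−0.89, SE 0.09), while the pyruvate decarboxylase gene PDC2 rose from 11, 13.4, and 13.5 CPM to 26.9, 34.4, and 28.8 CPM (1.24, SE 0.11).

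In nutrition and lipid metabolism most listed genes were not called. Of 43 nitrogen genes 9 rose and 2 fell (median 0.04). The nitrate-responsive regulator BT2 rose from 126, 115, and 108 CPM to 287, 302, and 343 CPM (log2 fold change 1.42, SE 0.09), LBD37, a repressor of nitrogen genes, fell from 124, 133, and 117 CPM to 66.9, 52.7, and 57.4 CPM (−1.08, SE 0.09), and the ammonium transporter gene AMT1;2 fell by 0.64 on the log2 scale. Of 56 iron and phosphate genes 3 rose and 7 fell, or 4 with DESeq2 and 9 with upper quartile factors (median −0.09). The iron store FER3 rose from 43.4, 39.2, and 32.4 CPM to 69.5, 114, and 119.6 CPM (1.4, SE 0.17), and BHLH101, a factor of the iron deficiency response, fell from 17.3, 22.0, and 33.7 CPM to 9.54, 5.89, and 6.57 CPM (−1.71, SE 0.22). Its relatives bHLH38, bHLH39, and BHLH100 were also called lower. Other iron deficiency genes of the list, IRT1, FRO2, and FIT1, were not called (0.18, 0.24, and 0.31). In the list of 73 lipid and wax genes 5 rose and 2 fell (1 to 4 fell when 1 library was left out, 4 without replicate 1 at 3 h), and the median was −0.08. The desaturase gene ADS2, known to be needed for chilling tolerance, rose from 61.8, 64.4, and 63.2 CPM to 249, 400.1, and 349 CPM (2.4, SE 0.13).

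Of 55 nuclear genes for photosystems, antennae, and Rubisco, none was called higher and 1 lower (1 higher and 2 lower without replicate 1 of either group, 2 lower also without replicate 2 at 3 h or with upper quartile factors), with a median log2 fold change of −0.07. None of the 6 ELIP and related stress genes was called. Of 41 chlorophyll and haem synthesis genes 2 rose and 1 fell, or 2 fell without replicate 3 at 3 h or with upper quartile factors (median −0.12). PORB, a protochlorophyllide reductase that needs light, rose from 195, 165, and 145 CPM to 256, 409.8, and 360.3 CPM (1.02, SE 0.15, adjusted p = 9.96e-05), and CLH1, a chlorophyllase, fell by 0.91 on the log2 scale (SE 0.08) from 44.2 ± 1.34 CPM (mean ± SD, n = 3), with separate groups. None of 38 ribosome biogenesis genes was called in either direction (median 0.05). Of 48 genes of reactive oxygen metabolism 2 rose, or 5 without replicate 2 at 22 °C, and 1 fell, or 2 without replicate 3 at 3 h (median −0.04). CAT1 rose from 15.1, 14.4, and 13.4 CPM to 27.5, 32.3, and 36.4 CPM (1.16, SE 0.11) while CAT2 fell, as given above. Of 42 glutathione S-transferases 3 rose and 3 fell (6 fell without replicate 1 at 22 °C, 7 without replicate 1 at 3 h, and 5 with upper quartile factors), and of 34 aquaporins and proton pumps 2 rose, or 1 without replicate 3 at 22 °C or replicate 2 at 3 h or with upper quartile factors.

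Of 52 splicing regulators and cold RNA-binding proteins 4 rose and 3 fell, and of 51 RNA helicase and mRNA decay genes 6 rose and none fell. CSDP1, which encodes a cold shock domain protein, rose from 22.9 ± 0.526 CPM to 48.3 ± 4.05 CPM (log2 fold change 1.07, SE 0.09, adjusted p = 1.90e-07), GRP7 rose from 100.4, 77.9, and 85.7 CPM to 250, 392, and 371 CPM (1.94, SE 0.15), and the splicing factor gene SR30 fell from 67.5, 73.0, and 70.3 CPM to 53.3, 45.6, and 44.9 CPM (−0.55, SE 0.09). The tandem zinc finger genes TZF3 and SZF2, of a family that acts on mRNA stability, rose from 34.9, 34.9, and 31.2 CPM to 194, 254, and 244 CPM (2.77, SE 0.10) and from 66.9, 67.7, and 72.3 CPM to 235, 212, and 219 CPM (1.69, SE 0.07).

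Shifts between the transcripts of a gene were tested with edgeR's exon-usage model applied to transcripts, and a call required an adjusted p below 0.05 with 1 transcript gaining or losing 10 percentage points or more of the reads of its locus. Of 6739 loci 50, or 0.742%, were called, and 26 of the 50 were not called in total level. The count fell to 26 without replicate 2 at 3 h and to 30 without replicate 3 at 3 h, with 22 and 24 of the 50 loci among them. Shares come from Salmon's assignment of reads between overlapping transcripts, whose own uncertainty was not part of the test. In 15 of the 50 loci the transcript was listed at 0 in all 3 libraries of 1 group.

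Several of the shifts with the smallest p were large in every library. That of UBQ11 was not, although its adjusted p was among the smallest (5.01e-09). The mean share of its transcript 1 went from 97.0% to 86.3%, and the call was lost at a minimum of 20 percentage points. Transcript 2 of AT2G16890, a gene for a UDP-glycosyltransferase, made up 53.6%, 39.9%, and 71.1% of the reads of the locus at 22 °C and 0.0%, 1.78%, and 1.39% after 3 h (adjusted p = 2.50e-05). Transcript 4 of the uncharacterized AT1G16840 went from 3.59%, 3.72%, and 4.23% to 30.3%, 41.4%, and 39.9% (adjusted p = 5.01e-09). For RLM3, a gene for a resistance protein of the TIR-NBS class, transcript 10 rose from 19.8%, 34.0%, and 23.2% to 57.8%, 58.1%, and 61.3%, while the total level was not called (log2 fold change 0.21, adjusted p = 0.252). Among genes of the lists, the share of transcript 1 of ARR4 fell from 91.9%, 96.6%, and 96.5% to 47.5%, 55.2%, and 56.3% (adjusted p = 0.000218), with the total of the locus rising by 0.93. Transcript 2 of the clock gene CCA1 fell from 30.4%, 26%, and 32.4% to 6.47%, 8.69%, and 10.8%, with an unchanged call for the total (0.10, adjusted p = 0.466). AT2G16890, AT1G16840, RLM3, ARR4, and CCA1 were called under each of the 12 settings run. Transcript 3 of PRR9 rose from 9.64%, 11.9%, and 6.71% to 64.0%, 58.2%, and 64.7%, but it was called under 5 of the 12 settings and 31% of the words of the locus are shared. In the stress genes ERD7 and SFR6, shifts of 38 and −23.9 percentage points were called under all 12 settings.

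**Figure D5:**
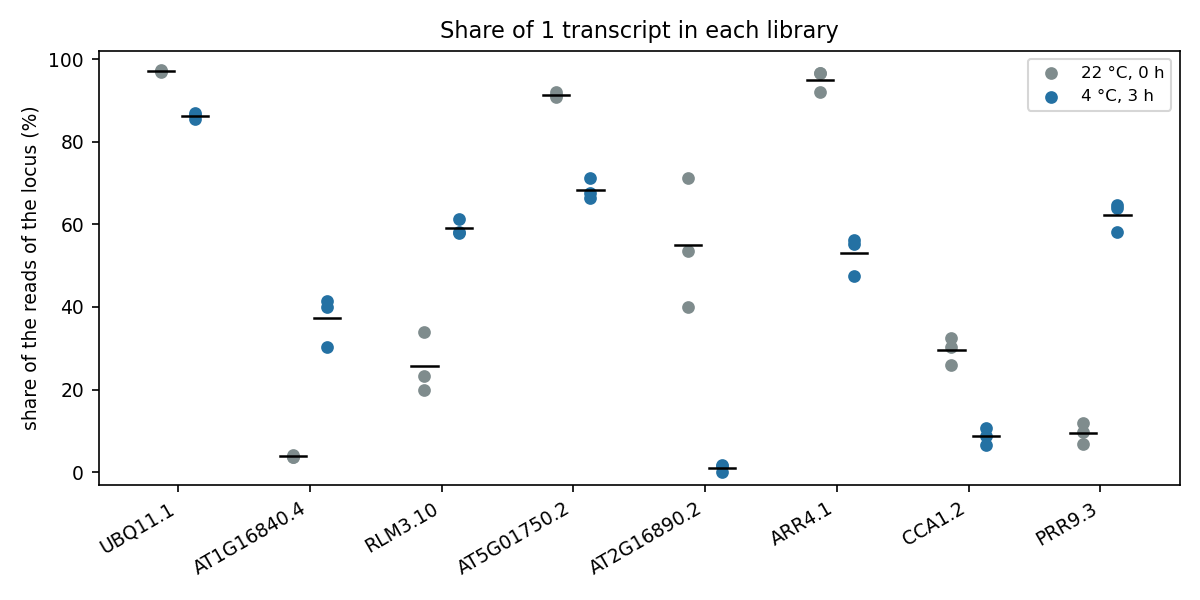
Share of the reads of a locus assigned to 1 transcript (%, transcript number after the point) in the 3 libraries at 22 °C (grey) and the 3 after 3 h at 4 °C (blue), with bars at the group means, for 8 of the 50 loci called. The groups are separate in each, and the shifts range from −53.8 percentage points in AT2G16890 to 52.9 in PRR9.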

How the data were processed

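Total RNA of the seedlings had been sequenced from strand-specific libraries. The authors removed rRNA reads with SortMeRNA and adapters with Trimmomatic, checked reads with FastQC, assigned them to Araport11 transcripts with Salmon, and used DESeq2. Salmon's options are not given in the sources used here. The deposited estimated counts give the expected reads of each transcript in each library, without scaling or pooling. The TPM values, per the file headers, are those counts divided by the effective length and scaled. They were not tested. No deposited column held the authors' comparisons.

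Estimated counts of 53467 transcripts were summed over 32310 loci, rounded, filtered with filterByExpr, scaled with TMM factors, and tested with the quasi-likelihood F test of edgeR 4.0.16 (limma 3.58.1, R 4.3.3) in 1 model over all 9 libraries, which shares the spread, with Benjamini-Hochberg adjustment over 20460 genes. SEs are the log2 fold change over the root of F. CPM are TMM-scaled. Replicates came from separate plates, and p-values measure the spread between them (common biological coefficient of variation 0.105). Within groups, counts differed by more than sampling noise (chi-square over its degrees of freedom, 3.23 to 12). Transcript usage was tested with diffSpliceDGE and Simes p-values. Alternatives were upper quartile factors, DESeq2 1.42.0 as a test and for its size factors only, other filters and thresholds, the 6 libraries alone, organelle genes left out, a replicate block, and each library left out. The code was tested on simulated data. Python 3.11.15 with numpy 2.4.6, pandas 2.3.3, and matplotlib 3.10.9 was used for tables and figures.

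The lists, the DNA words, and the rule for named genes were chosen with earlier results of these data known. Of 2994 names written for 47 lists, 1883 matched a RefSeq symbol and 547 a synonym, 494 were unmatched, 19 matched several loci, and 51 were dropped, by annotation, as genes of another kind, which left 2209 loci. The rule names the 8 largest rises and falls, CBF and COR genes left out, among called genes that had separate groups and 10 CPM or more in 1 of them, the 5 largest gains and losses of CPM, genes without reads at 22 °C, up to 2 called members per direction and list, taken by p, and the clearest changes of transcript usage. Other members given beside a count, ERD7, SFR6, and AT4G34540 were named after their values were seen. Of 174 named genes, 20 share over 5% of their 31-base words with other loci. A locus on the other strand overlaps 41 of them and 1 on the same strand 6, and reads of such pairs may not have been told apart.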

Additional observations from a re-analysis of the deposited data

How the results depend on the processing

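No named gene changed direction under any setting in which it was tested. The number of genes called moved most with the fold minimum, from 2152 to 3429 with none and to 965 with a minimum of 1 on the log2 scale (higher, 769 at the stricter fold; lower, 1335 and 196). List members called then dropped from 380 to 195 and named genes called to 107. Leaving out 1 library gave 1895 to 2147 genes called, 1303 to 1425 higher and 583 to 722 lower, 346 to 390 list members, and 156 to 162 named genes. Upper quartile factors shifted the median of all genes from −0.01 to −0.06 and the calls to 1306 higher and 923 lower. The same-number residuals of the groups correlated at −0.197 to −0.0534, so same-numbered libraries did not deviate alike. With 3 libraries per group this cannot decide whether they were paired, and the labels do not say. The replicate block called 2045 genes, 1393 higher and 652 lower, with 375 list members and 164 named genes. Transcript usage was less stable than 50 loci, with 25 at an adjusted p under 0.01, 92 with at least 10 counts per transcript, 91 with the 6 libraries alone, 27 with the replicate block, and 26 to 51 with 1 library left out. The cause was not tested. At this depth genes under the filter were not tested, and 3 libraries per group limit the detection of small shifts.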

Other observations

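Grouped by RefSeq descriptions instead of the lists, some classes not described above were called more often than the background of 7.05% higher and 3.47% lower. Of 131 genes for NBS-LRR proteins, the intracellular immune receptors, 31 rose and 3 fell, a share of 23.7% higher with a median log2 fold change of 0.20. Of 52 genes for protein phosphatases 2C, which reverse kinase signals, 11 rose and 2 fell. B-box zinc fingers, which act in light and clock signalling, had 5 rises and 3 falls among 20. Falls were more frequent than rises for UDP-glycosyltransferases (15 and 9 of 115), cytochrome P450 enzymes (17 and 10 of 172), and F-box proteins (16 and 11 of 172, median −0.19). Ribosomal proteins were called in 4 of 340 cases and histones in 1 of 45, all of them higher, and pentatricopeptide repeat proteins, which act on organelle RNA, in 10 higher and 9 lower of 280. Of 350 long noncoding RNAs 26 rose and 23 fell. The classes were chosen with results known, and no test was run on them.

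A called fall rested on a single library. AT1G18000, a transporter-like gene chosen after its values were seen, had 584 reads in replicate 3 at 22 °C and 0 in each of the other 5 libraries (log2 fold change −10.63, SE 3.03, adjusted p = 0.027). It shares 99.7% of its 31-base words with AT1G18010, which had 556 and 655 reads in replicates 1 and 2 at 22 °C, 0 in replicate 3, and 267, 171, and 231 after 3 h. Summed over both loci the reads were 556, 655, and 584 at 22 °C and 267, 171, and 231 after 3 h, so the groups did not overlap for the sum.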
